A study of Mus musculus with 24 samples.

Results

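Small nuclear RNAs (snRNAs) were found among the RNAs that a surface method read out from mouse blood cells. Their levels were compared across 5 cell types. The set was defined as every transcript of gene type snRNA that was listed in all 5 surface tables and that exceeded a level of 50 TPM (transcripts per 1e+06, a share of reads corrected for transcript length) in at least 1 of the 15 libraries. Of 102001 transcripts listed in all 5 tables, 497 were snRNAs and 136 of these met the rule. Transcripts with the same value in every library were counted once, which left 78 distinct snRNAs. Of these, 11 carried a named gene (gene names starting with Rnu) and 67 carried only Gm names, which mark gene models without a conventional name. The members were thus chosen by their highest surface TPM, so the height of these levels is a description and not a result.

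The snRNAs are short, abundant, non-coding RNAs that work in the nucleus as the core of small ribonucleoproteins (snRNPs). U1, U2, U4, U5 and U6 form the major spliceosome, in which U1 pairs with the start of the intron, U2 with the branch point, U5 holds the exon ends, and U6, delivered in base-paired form with U4, becomes part of the catalytic centre. U11, U12, U4atac and U6atac replace U1, U2, U4 and U6 in the minor spliceosome, which removes a rare class of introns. U7 pairs with replication-dependent histone mRNAs and takes part in forming their 3′ ends. Most are made by RNA polymerase II and bind a ring of Sm proteins, whereas U6 and U6atac are made by RNA polymerase III and bind Lsm proteins.

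Surface RNA was measured with AMOUR, in which fixed intact cells are held on Concanavalin A beads. A T7 promoter oligo with random bases is meant to anneal to RNA on the outside of the cell. T7 RNA polymerase then copies that RNA in place. The paper states that no current method, AMOUR included, can fully exclude RNA from inside the cell. In its control on cultured human cells, RNVU1 and RNU6, both snRNAs, kept strong signals after RNase treatment, which the paper ascribes to their structure. Surface levels here are therefore levels read out by AMOUR. All 15 libraries came from C57BL/6 mice labelled WT, with 3 libraries for each cell type, and no ages are given. B cell, T cell and NK libraries came from spleen and HSPC (hematopoietic stem and progenitor cell) and Monocyte libraries from bone marrow, each isolated with a bead kit. The T cell kit was one for CD8 cells, and the HSPC kit removed lineage-positive cells without a positive selection. Total RNA from blood mononuclear cells (PBMC) of wild type mice formed a separate experiment with 3 libraries in each of 3 treatments labelled ct, WT and Y, which the labels do not explain. The paper calls the surface replicates of the murine cell types independent and biological. The labels do not say which libraries came from separate animals. The p-values therefore measure the spread between these libraries, which may not be that between animals and may be technical. The Monocyte libraries were sequenced on another instrument, with shorter reads, than the other cell types. Cell type and platform therefore cannot be told apart in any difference between Monocyte and the rest. Nor can cell type and tissue be told apart between the spleen libraries and those of bone marrow. In bulk samples such as these, fewer cells of a type and less RNA per cell cannot be told apart.

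The libraries differed in what else they held, which bears on every TPM because TPM values share a fixed total. A trio of miRNA transcripts with the same values took 74.3% to 83.3% of TPM in HSPC and 9.72% to 31.5% elsewhere, and ribosomal RNA took 7.71% to 12.6% in HSPC and 33.1% to 64.2% elsewhere. The snRNAs together took 16.3% to 18.1% of TPM in T cell, 10.2% to 11.2% in B cell, 9.92% to 14.3% in NK, 5.50% to 6.63% in Monocyte and 2.63% to 3.74% in HSPC. Once ribosomal RNA and the miRNA trio were left out of the total, the shares were 38.4% to 49.2%, 40.5% to 41.1%, 30.4% to 41.4%, 11.3% to 13.7% and 25.5% to 29.3% in the same order. Of the marker lists of 6 genes for the 5 isolated cell types, each was highest in its own cell type except the HSPC list, whose summed level was 267 to 414 TPM in Monocyte and 63.3 to 133 TPM in HSPC. Neutrophil markers summed to 1406 to 1502 TPM in Monocyte and to at most 54.9 TPM in the other cell types. B cell markers summed to 101 to 264 TPM in NK, 54.9 to 97.0 TPM in Monocyte and 17.0 to 25.5 TPM in HSPC. In T cell they summed to 17.9 to 128 TPM, where the T cell markers themselves summed to 21.7 to 62.4 TPM. B cell 1 stood apart from B cell 2 and B cell 3, with 31.5% of TPM in the miRNA trio against 14.2% and 10.6%. T cell 1 and NK 1 stood apart too, by the median absolute log2 difference over 1032 transcripts above 50 TPM in some library. It was 0.67 and 0.65 for T cell 1 against T cell 2 and T cell 3, and 0.26 between the latter. For NK 1 it was 0.57 and 0.72, against 0.25, and for B cell 1 0.46 and 0.62, against 0.25. The snRNAs took 14.3% of TPM in NK 1 and 9.92% and 10.3% in NK 2 and NK 3. How much of any snRNA difference these features carry was not tested.

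The sequences below are reference entries matched to the named RNAs and were not read from these libraries. No pairing letters were searched in U4 and U4atac. The snRNAs were assigned to families by identity to a named sequence of the GENCODE M21 transcript set, whose coordinates are on GRCm38, after matching 134 of the 136 transcripts by gene name and 2 by transcript ID. Capitals mark the letters that pair with pre-mRNA or histone mRNA, searched on the RNA strand only, namely CTTACCT in U1, GTAGTA in U2, CTCTTTT in U7, AAAAGGG in U11, TAAGGA in U12 and AAGGAGA in U6atac. Capitals also mark ATTTNTG, a form of the Sm-binding site, where it occurred. A match of these letters describes the sequence and is not evidence of binding.
Rnu1a1, U1, chr11:87422867-87423030, plus strand: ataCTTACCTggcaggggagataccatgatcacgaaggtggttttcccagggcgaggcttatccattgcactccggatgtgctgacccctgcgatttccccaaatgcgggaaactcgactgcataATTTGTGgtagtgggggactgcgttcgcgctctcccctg
Rnu2-10, U2, chr11:101658238-101658428, plus strand: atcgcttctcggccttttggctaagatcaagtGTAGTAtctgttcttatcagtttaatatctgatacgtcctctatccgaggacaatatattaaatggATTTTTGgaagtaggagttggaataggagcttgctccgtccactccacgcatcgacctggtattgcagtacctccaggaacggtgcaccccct
Gm24265, U4, chr5:115489459-115489599, plus strand: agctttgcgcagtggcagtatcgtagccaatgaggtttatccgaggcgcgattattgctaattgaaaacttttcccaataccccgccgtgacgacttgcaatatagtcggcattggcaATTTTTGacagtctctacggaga
Rnu7, U7, chr6:124741225-124741286, minus strand: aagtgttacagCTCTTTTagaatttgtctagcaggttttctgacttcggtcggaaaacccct
Rnu11, U11, chr4:132270080-132270213, minus strand: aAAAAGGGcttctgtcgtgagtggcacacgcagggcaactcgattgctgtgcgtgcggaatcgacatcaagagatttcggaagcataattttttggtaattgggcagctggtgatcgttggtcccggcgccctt
Rnu12, U12, chr15:83149644-83149794, plus strand: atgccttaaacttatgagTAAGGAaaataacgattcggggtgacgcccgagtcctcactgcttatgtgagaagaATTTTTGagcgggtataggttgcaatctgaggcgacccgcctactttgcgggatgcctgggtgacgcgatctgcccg
Rnu4atac, U4atac, chr1:118459141-118459265, minus strand: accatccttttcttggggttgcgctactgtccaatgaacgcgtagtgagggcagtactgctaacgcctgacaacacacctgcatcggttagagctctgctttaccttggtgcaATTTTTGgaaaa
Gm25541, U6atac, chr2:27539805-27539930, minus strand: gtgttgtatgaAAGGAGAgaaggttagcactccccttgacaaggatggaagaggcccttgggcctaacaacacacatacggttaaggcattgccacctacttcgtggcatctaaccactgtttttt

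The pairing letters were found in all 7 distinct U1 members and all 9 U2 members. GCCTTTT of the U5 loop, which holds the exon ends, was found in all 7 U5 members. Families were set by identity to a sequence that holds these letters, so such matches were largely given by the assignment. The listed snRNAs, over which the shares below are taken, include the same families. Over the 474 listed snRNAs with a sequence, CTTACCT occurred in 8.44%, GTAGTA in 6.12%, GCCTTTT in 7.38%, CTCTTTT in 1.05%, AAAAGGG in 0.633%, TAAGGA in 1.9%, AAGGAGA in 0.633% and ATTTNTG in 24.9%. For 8 transcripts (Rnu5g, Gm25313, Gm25099, Gm23444, Gm22068, Gm22317, Gm26232 and Gm26065) the transcript ID and the gene name pointed to different annotation entries of the same family, with different sequences for 5 of them, and the entry found by gene name was used.

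U6 has far more copies than the other families and carries the ACAGAGA box, which pairs with the start of the intron. Of the 48 distinct U6 members, 43 held the box, which also occurred in 57% of the listed snRNAs. Of the listed snRNAs, 321 were themselves U6.

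The major spliceosomal RNAs held most of the surface snRNA level in every library, between 88.5% and 96.8% of the summed snRNA TPM. Family shares were taken over all listed transcripts of a family. U1 had the highest median share over the 15 libraries (29.6%), followed by U6 (25.8%), U5 (21.1%) and U2 (17.2%), whereas U4, the partner of U6, had a median of 3.64%. U7 had a median share of 4.04% and the 4 minor spliceosomal RNAs together 4.34%. These shares sum all transcripts of a same-valued set. With 1 transcript counted per set, which keeps 1 of the 43 Rnu6 transcripts, the median was 40.3% for U5 and 6.17% for U6.

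**Figure D1:**
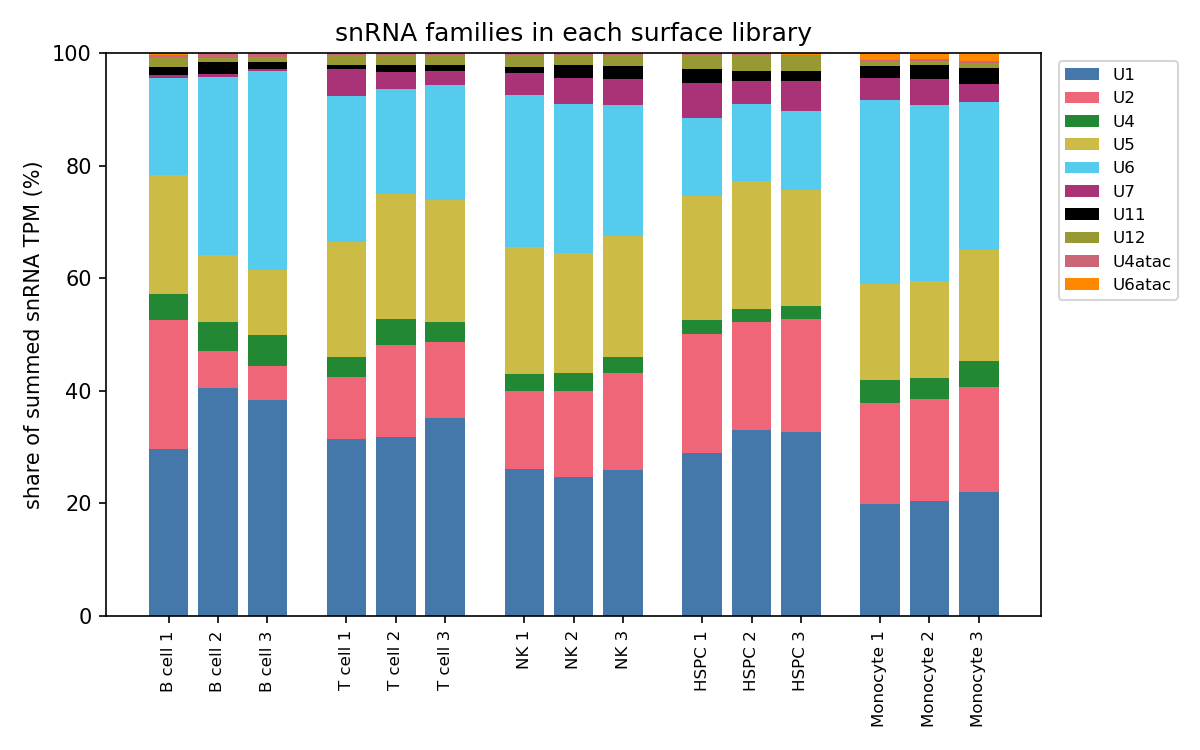
Share of the summed snRNA TPM (percent, y axis) taken by each snRNA family in each of the 15 surface libraries (x axis, 3 per cell type), stacked to 100%. U6 takes 26.4% to 32.7% in the Monocyte libraries and 13.5% to 14.1% in the HSPC libraries, and B cell 1 differs from the other B cell libraries in U2 and U6.

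The family shares varied between cell types and between libraries of a cell type, in B cell and elsewhere. In T cell, U6 took 25.8%, 18.5% and 20.5% of snRNA TPM and U7 4.81%, 3.18% and 2.44%. In NK, U11 took 0.979%, 2.21% and 2.42%. U1 took 19.9%, 20.3% and 22.0% of snRNA TPM in the Monocyte libraries, below every library of the other 4 cell types. U6 took 14.0%, 13.5% and 14.1% in HSPC, below every library outside HSPC. U6 thus exceeded U1 in Monocyte, by ratios of 1.20 to 1.64, and stood at 0.410 to 0.483 of U1 in HSPC. In B cell, U2 took 23.0% of snRNA TPM in B cell 1 but 6.70% and 6.07% in B cell 2 and B cell 3. U6 moved the other way in the same libraries, at 17.3% against 31.6% and 35.3%. The U1 to U2 ratio was therefore 1.28 in B cell 1 and 6.03 and 6.32 in the other B cell libraries, against 1.11 to 2.89 over the 12 libraries of the other cell types. The B cell values of U2, U5 and U6 members are therefore given by library or as ranges.

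Levels of single snRNAs were highest in T cell for 32 of the 78 distinct members, in Monocyte for 34, in B cell for 7, in NK for 5 and in HSPC for none, by group means. HSPC had the lowest mean for 61 members. It was also at 0, tied for the lowest mean, for Gm22169, Gm26204, Gm23428, Gm23661 and Gm26065, which were counted for another cell type. In the comparisons given below, 69.7% of all transcripts tested were called lower in HSPC and 79.5% higher in Monocyte. Low levels in HSPC and high levels in Monocyte were thus shared with most transcripts. Of the 78, 27 exceeded 50 TPM in at least 1 library of every cell type, and these are the RNAs compared between cell types below. Among the 27, T cell had the highest mean for 18, Monocyte for 5, B cell for 3 and NK for 1, so that 29 of the 34 highest means in Monocyte belonged to RNAs outside this set. The remaining 51 exceeded it in some cell types only, so the rule itself made them differ, and they are described without a test.

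U1, which recognises the 5′ splice site, was led by Rnu1a1, whose value was shared by 6 transcripts. These had 2 distinct sequences by gene name, a count that rests on that choice for Gm22068 and Gm22317. One Rnu1a1 transcript was at 6755, 6081 and 7186 TPM in T cell, 3649, 5113 and 4436 TPM in B cell, 4419, 2913 and 3146 TPM in NK, 1499, 1589 and 1355 TPM in Monocyte and 886, 1444 and 1048 TPM in HSPC. T cell libraries were all above the rest, and B cell overlapped with NK and Monocyte with HSPC. Gm22513 differs from Rnu1a1 by T60C (the Rnu1a1 base, its position counted from 1 at the 5′ end and the base of the copy, as in the substitutions given later). It had the highest mean over all 15 libraries of any single member transcript. In every NK, Monocyte and HSPC library, however, Gm25313 of U5 was above it. Gm22513 was at 11219 to 13831 TPM in T cell, 6813 to 11445 TPM in B cell, 4949 to 7280 TPM in NK, 2125 to 2455 TPM in Monocyte and 1309 to 2078 TPM in HSPC. The 6 Rnu1a1 transcripts together averaged 40045 TPM in T cell (SD 3343, n = 3). They held 67.2% to 71.5% of U1 in all 15 libraries, whereas Gm22513 ranged from 16.1% to 25.3%. Gm22614, which differs from Rnu1a1 by 6 single-base edits, took 10.8% to 11.2% of U1 in HSPC, 8.42% to 11.8% in Monocyte and 5.41% to 6.07% in B cell.

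Rnu1b6 and Rnu1b1, the named U1b genes, lay far lower. Rnu1b6 was at 42.3, 93.9 and 89.5 TPM in B cell, 71.1, 71.4 and 92.3 TPM in T cell, 107, 42.2 and 62.6 TPM in NK, 32.4, 55.2 and 39.1 TPM in HSPC and 32.0, 48.6 and 48.7 TPM in Monocyte. Rnu1b1 was at 50.4, 44.0 and 45.5 TPM in B cell, 23.9, 46.8 and 35.4 TPM in T cell, 70.1, 40.3 and 66.4 TPM in NK, 32.4, 47.7 and 37.2 TPM in HSPC and 37.7, 27.4 and 9.55 TPM in Monocyte. For both genes, every pair of neighbouring cell types overlapped.

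U2, which pairs with the branch point, was led by Rnu2-10 with 4 transcripts of the same value. One Rnu2-10 transcript was at 3759, 5122 and 4403 TPM in T cell, 3674, 2896 and 3226 TPM in NK, 1969, 2003 and 1727 TPM in Monocyte and 837, 1101 and 871 TPM in HSPC. In B cell it was at 4673 TPM in B cell 1 and at 1520 and 1257 TPM in the other libraries, so that B cell 1 lay within the T cell range and B cell 2 and B cell 3 lay between Monocyte and HSPC. The Rnu2-10 set made up 78.1% to 81.2% of U2 in B cell, in spite of that drop, and 60.1% to 62.4% in HSPC, with the other cell types between. Its variants filled the difference: Gm25939 (T69C, C78T and G109C relative to Rnu2-10) took at least 10.2% of U2 in every HSPC library, 9.07% to 9.65% in Monocyte and 4.18% to 4.53% in B cell. In TPM, Gm25939 was at 612, 735 and 570.0 in HSPC and at 1002, 325 and 281 in B cell, the cell types with the lowest means. Gm23444, whose value was shared by 2 transcripts, was at 1546, 2058 and 1926 TPM in T cell, 1409, 1054 and 1337 TPM in NK, 1855, 480 and 348 TPM in B cell, 814, 875 and 683 TPM in Monocyte and 546, 673 and 510.2 TPM in HSPC. The pair held 18.3% to 19.6% of U2 in HSPC and 11.3% to 16.4% in the other libraries.

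Less abundant U2 variants had their highest means in Monocyte. Gm25360 was at 180.4, 298 and 265 TPM in Monocyte, 244, 186 and 256 TPM in NK, 165, 218 and 164 TPM in HSPC, 114, 151 and 140.4 TPM in T cell and 144, 35.7 and 27.0 TPM in B cell. Gm26316, which differs from Rnu2-10 by C170T, was at 344, 323 and 209 TPM in Monocyte, 239, 151 and 256 TPM in NK, 155, 184 and 144 TPM in HSPC, 89.9, 126 and 136 TPM in T cell and 143, 38.8 and 99.5 TPM in B cell. Their order across cell types, with T cell among the lowest, was not that of Rnu2-10, which was highest in T cell.

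U4, which carries U6 into the spliceosome, had 2 members, Gm24265 and Gm24407, which lie near each other on chromosome 5 and differ by G88A and C99A. Gm24265 was at 4025, 4608 and 3674 TPM in T cell, 2932, 3388 and 2927 TPM in B cell, 2748, 2209 and 1914 TPM in NK, 1446, 1264 and 1328 TPM in Monocyte and 425, 541 and 419 TPM in HSPC. No 2 cell types overlapped. Gm24407 was at 2688, 3083 and 2432 TPM in T cell, 1752, 2271 and 2579 TPM in B cell, 1091, 1142 and 1212 TPM in Monocyte, 1530, 957 and 954 TPM in NK and 205, 327 and 215 TPM in HSPC, with T cell overlapping B cell and Monocyte overlapping NK. Gm24265 made up between 52.3% and 69.8% of U4.

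U5, whose loop holds the exon ends together, had 7 members, each with its own value, and all 7 were above 50 TPM in every cell type. Gm25313 was at 12102, 11338 and 12111 TPM in T cell, 10282, 7071 and 6820 TPM in NK, 7313, 4791 and 4030 TPM in B cell, 3506, 3604 and 3220 TPM in Monocyte and 1764, 2443 and 1650 TPM in HSPC. Rnu5g was at 9866, 8930 and 9141 TPM in T cell, 8955, 5576 and 5753 TPM in NK, 4597, 3396 and 2764 TPM in B cell, 2374, 2489 and 2476 TPM in Monocyte and 1550, 2347 and 1649 TPM in HSPC. Both followed the same order of means, from T cell through NK, B cell and Monocyte to HSPC. Gm24871 had this order of means too, but its B cell libraries were far apart, with 3532 TPM in B cell 1 and 682 and 574 TPM in B cell 2 and B cell 3, below every other surface library. It was at 7992, 8109 and 8958 TPM in T cell, 7463, 4995 and 5286 TPM in NK, 1473, 1419 and 1197 TPM in Monocyte and 1176, 1743 and 1169 TPM in HSPC. Gm24871 therefore made up 21.6% to 23.7% of U5 in T cell and 23.0% to 23.8% in NK, and 16.1%, 5.08% and 4.84% in the B cell libraries. Gm23143, which differs from Rnu5g by 10 substitutions, made up 8.57% to 9.08% of U5 in Monocyte and 5.46%, 4.66% and 9.98% in B cell, but at most 2.70% in T cell, NK and HSPC. Gm25099 held 14.98%, 21.8% and 21.3% of U5 in the B cell libraries, 14.1% to 15.3% in Monocyte and 9.43% to 12.7% in the other 3 cell types, so that B cell 1 lay within the Monocyte range. Gm22265 was lower, at 1404, 1252 and 1251 TPM in T cell, 1155, 567 and 712 TPM in NK, 1308, 602 and 459 TPM in B cell, 545, 611 and 602 TPM in Monocyte and 248, 447 and 268 TPM in HSPC, with T cell overlapping B cell through B cell 1 only.

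U6 was the largest family, with 93 of the 136 transcripts and 48 of the 78 distinct members. Rnu6 had 43 transcripts with 1 sequence and 1 value, spread over 18 chromosomes, among which the reads cannot be told apart. One Rnu6 transcript was at 952, 607 and 732 TPM in T cell, 793, 536 and 479 TPM in NK, 372, 558 and 522 TPM in B cell, 306, 293 and 209 TPM in Monocyte and 75.3, 104 and 79.3 TPM in HSPC. Summed over the 43 transcripts this was 26114 to 40954 TPM in T cell, 20590 to 34119 TPM in NK, 16015 to 23982 TPM in B cell, 8972 to 13151 TPM in Monocyte and 3236 to 4468 TPM in HSPC. HSPC lay below all other libraries, and T cell overlapped NK and NK overlapped B cell. The set made up 86.3% to 88.8% of U6 in T cell, NK, HSPC and B cell 1, and 60.9% to 67.8% in B cell 2, B cell 3 and all Monocyte libraries.

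Different copies filled the gap in B cell and in Monocyte. In B cell 2 and B cell 3, Gm22363 was at 2967 and 3970 TPM and Gm22618 at 2810 and 3182 TPM, whereas B cell 1 had 208 and 256 TPM of the same RNAs. Over the other 12 libraries Gm22363 was between 81.9 and 509 TPM and Gm22618 between 44.0 and 505 TPM. The 2 copies and the same-valued Gm22505 thus took 24.7% and 30.9% of U6 in B cell 2 and B cell 3 and 3.25% to 5.91% in every other library, B cell 1 included. A high B cell level of these RNAs was therefore a property of 2 of the 3 B cell libraries.

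In Monocyte, Gm22129 was at 1243, 1382 and 926 TPM, and at 16.5 to 257 TPM in the other 12 libraries. It took 5.89% to 6.68% of U6 in Monocyte and 0.169% to 0.850% elsewhere. Gm25412 went the other way, with 754, 526 and 495 TPM in T cell and 87.3, 146 and 68.3 TPM in Monocyte, close to the 51.6, 75.8 and 66.0 TPM in HSPC.

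**Figure D2:**
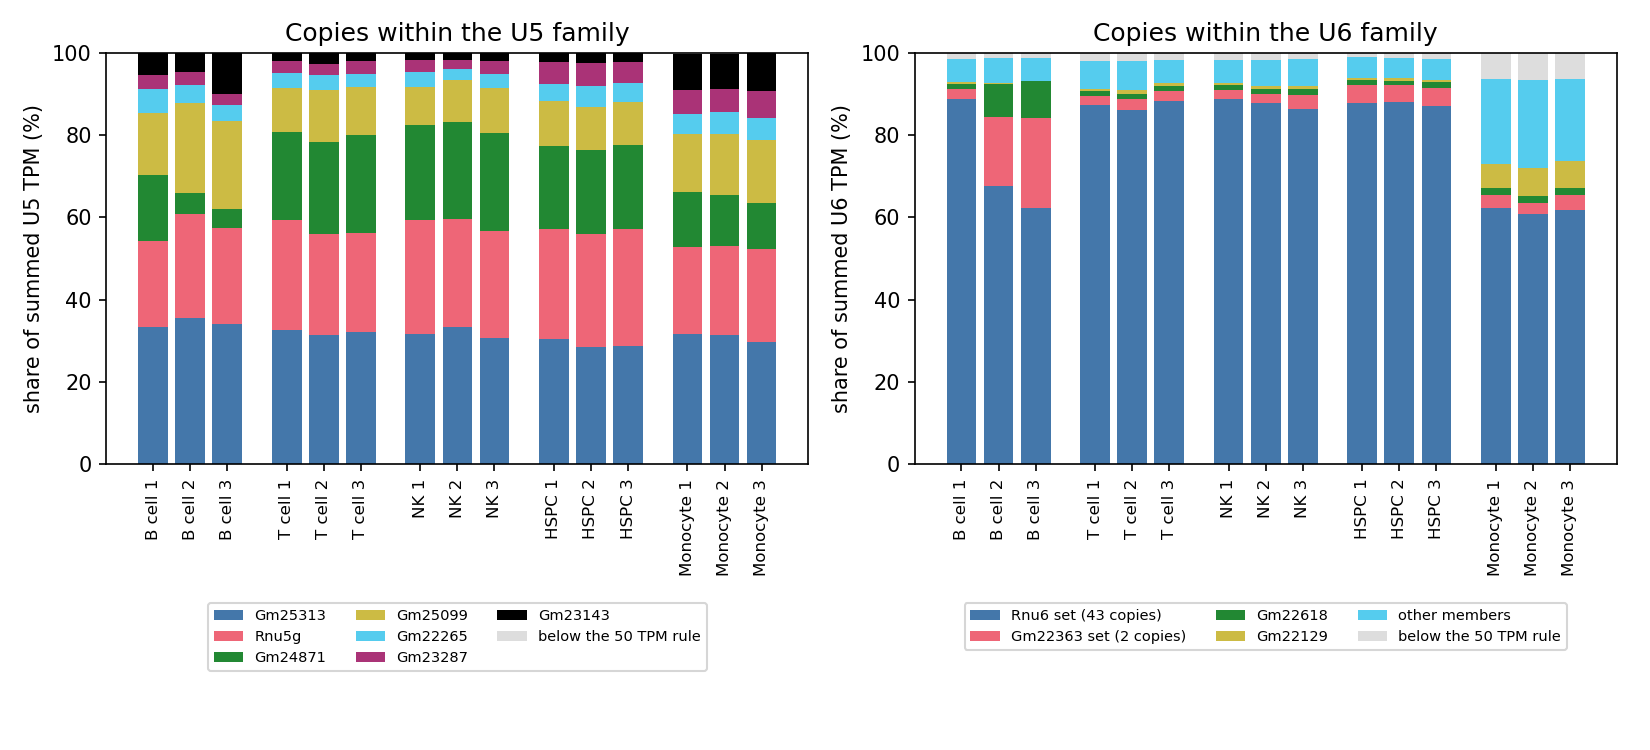
Share of each family's TPM (percent, y axis) held by its leading copies in each of the 15 surface libraries (x axis), stacked to 100% for the U5 family (left) and the U6 family (right). Gm24871 shrinks to 5.08% and 4.84% of U5 in 2 B cell libraries, and the Rnu6 set is between 60.9% and 67.8% of U6 in the Monocyte libraries and in the same 2 B cell libraries.

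Of the 51 members above 50 TPM in some cell types only, 23 were above it in Monocyte alone, and 21 of these were U6. Passing in Monocyte alone was common among all RNAs, at 65% of the 923 tested transcripts above the threshold in some cell types only. The 21 copies summed to 3041, 3144 and 1942 TPM in Monocyte, which was 12.8% to 14.4% of U6, and to 18.7 to 287 TPM in the other libraries, which was 0.417% to 0.663% of U6. Gm25245 was the highest of them, at 504, 475 and 285 TPM in Monocyte and at most 7.35 TPM elsewhere. The named pseudogene Rnu6-ps1 was at 87.0, 87.7 and 28.6 TPM in Monocyte and between 0 and 1.33 TPM elsewhere. The copies above the threshold in Monocyte alone had a median of 4 differences from Rnu6 (range 1 to 26, 21 copies), and the other U6 members a median of 1 (range 0 to 9, 27 members). In the reverse case, 3 of the 78 members, all of U6, were listed at 0 in all 3 Monocyte libraries, against 1.94% of all transcripts tested, namely Gm22623 (46.4 to 146 TPM in B cell, T cell and NK), Gm24182 (44.6 to 122 TPM in the same cell types) and Gm22969 (10.6 to 59.9 TPM there). For these copies, too, cell type and platform cannot be told apart. The Monocyte values were also given for 1381 snRNAs, and those of each other cell type for 497. Whether this bears on how reads were divided between U6 copies was not tested.

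At the threshold, the members just inside were Gm22638 (highest value 53.4 TPM, in NK 1) and Gm23610 (57.1 TPM, in NK 3), and the snRNAs just outside were Gm22451 (48.9 TPM) and Gm24707 (48.8 TPM), both in Monocyte 1. The Monocyte table also listed 884 snRNAs that the other tables did not. Only Gm24043, at 88.4 TPM, exceeded 50 TPM among them.

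Outside the major spliceosome each family had 1 member, and the order of the cell types by means differed between these 5 RNAs, although neighbouring cell types often overlapped. U7, the histone mRNA processing RNA, had 4 listed transcripts, of which Rnu7, of 62 bases, was the only member. Rnu7 was at 580.2, 566 and 468 TPM in B cell, 8730, 5198 and 4258 TPM in T cell, 5779, 4632 and 4767 TPM in NK, 2532, 3035 and 1763 TPM in Monocyte and 1626, 1545 and 1463 TPM in HSPC. All 3 B cell libraries, B cell 1 included, lay below all other libraries, of which the lowest was HSPC 3. Relative to U1, U7 stood at 0.0120 to 0.0189 in B cell and 0.0695 to 0.226 in the other cell types. Only T cell and NK overlapped among neighbouring cell types.

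Of the minor spliceosomal RNAs, U12 pairs with the branch point and U11 with the 5′ splice site. Rnu12 was at 3364, 2804 and 3330 TPM in T cell, 3210, 1771 and 1990 TPM in NK, 1737, 791 and 834 TPM in B cell, 674, 1072 and 779 TPM in HSPC and 491, 513 and 467 TPM in Monocyte. Among the 27 members above 50 TPM in every cell type, only Rnu12 had its lowest mean in Monocyte. Rnu11 varied less, at 1399, 2189 and 2490 TPM in NK, 1318, 1931 and 1828 TPM in T cell, 1443, 2316 and 1241 TPM in B cell, 1360, 1648 and 1543 TPM in Monocyte and 654, 689 and 543 TPM in HSPC. HSPC alone was separate from the rest. The U11 to U12 ratio was 2.77 to 3.30 in Monocyte and 0.392 to 0.688 in T cell, with B cell at 0.831, 2.92 and 1.52.

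U4atac and U6atac, which pair with each other as U4 and U6 do, had different orders of cell types. Rnu4atac was at 499, 902 and 610.1 TPM in B cell, 423, 305 and 347 TPM in T cell, 167, 171 and 211 TPM in Monocyte, 139, 127 and 109.8 TPM in NK and 13.9, 12.7 and 11.3 TPM in HSPC. No 2 cell types overlapped, and HSPC stayed below 50 TPM, so Rnu4atac was not among the tested members. Gm25541, the U6atac member, was at 782, 711 and 694 TPM in Monocyte, 254, 233 and 201 TPM in NK, 144, 321 and 154 TPM in T cell, 332, 165 and 91.9 TPM in B cell and 56.7, 94.3 and 73.7 TPM in HSPC. The ratio of U4atac to U6atac was 0.214 to 0.303 in Monocyte, 0.133 to 0.246 in HSPC, 0.543 to 0.546 in NK, 0.944 to 2.94 in T cell and 1.502 to 6.64 in B cell.

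**Figure D3:**
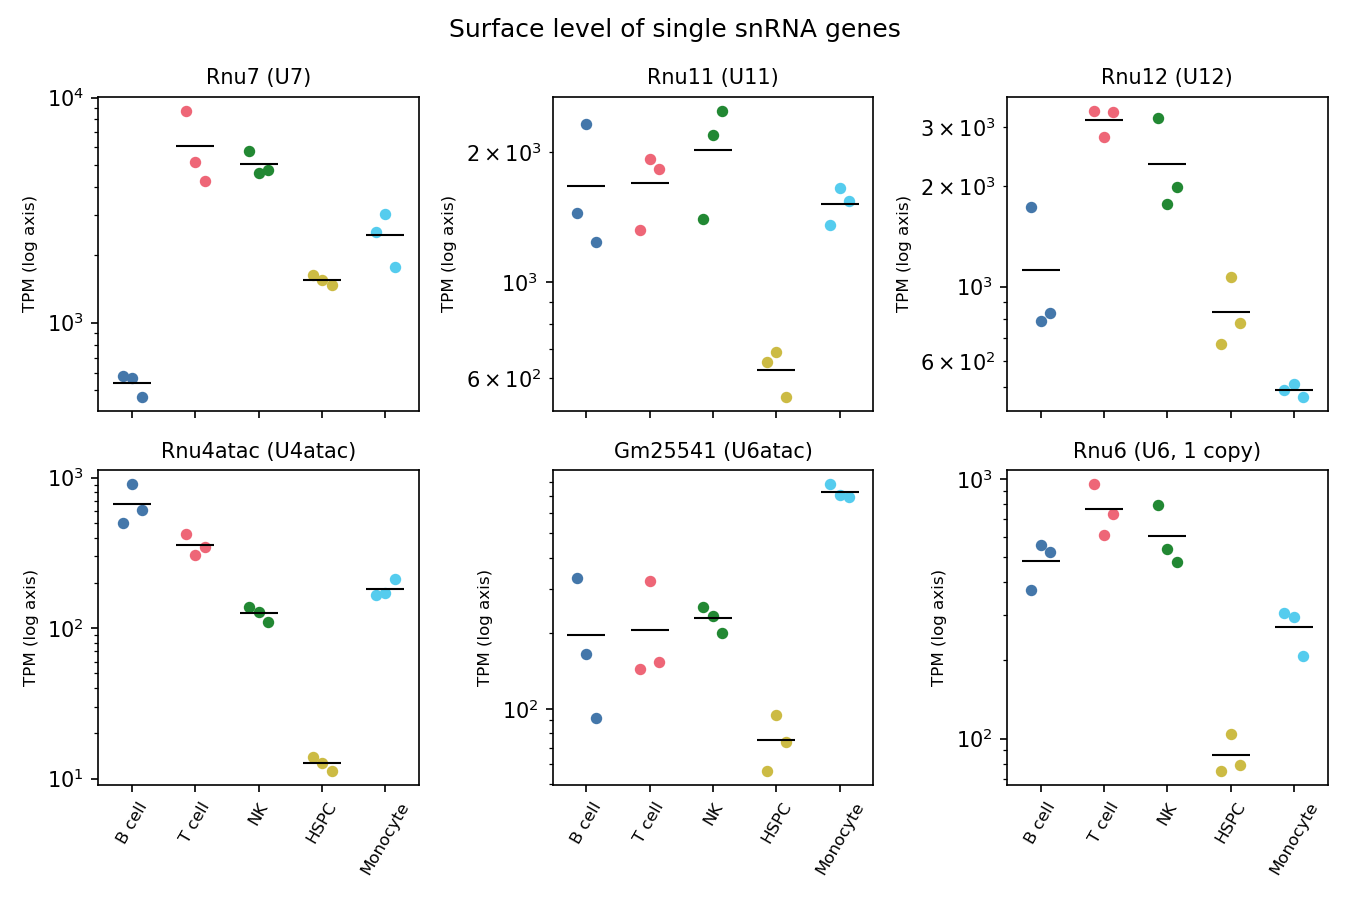
Surface level (TPM, log y axis) of Rnu7, Rnu11, Rnu12, Rnu4atac, the U6atac member Gm25541 and 1 Rnu6 transcript in each of the 3 libraries of each cell type (x axis); each point is 1 library and each bar the group mean. Rnu7 is at 468 to 580.2 TPM in B cell against 1463 to 8730 TPM elsewhere, and Gm25541 is at 694 to 782 TPM in Monocyte against 56.7 to 332 TPM elsewhere.

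Each of the 5 cell types was then set against the average of the remaining 4 by limma on log2(TPM + 1), fitted over all 1032 distinct transcripts above 50 TPM in at least 1 library, with Benjamini-Hochberg adjustment over all of them and calls at an adjusted p below 0.05. The 5 comparisons share libraries and are given side by side. For the 27 members above 50 TPM in every cell type, counts of calls are set beside the share of all tested transcripts called in the same direction. Many tested transcripts passed the threshold in 1 cell type only and so had to differ, which is why the share among the 109 transcripts above 50 TPM in every cell type, the 27 members included, is given as well. A fixed total ties snRNA levels to ribosomal RNA and miRNA. Each call was therefore also made on TPM rescaled without ribosomal RNA and the miRNA trio. It was made as well on TPM relative to the summed snRNA TPM of the library. The members supply much of that sum, so on this last scale their fold changes are bound to offset one another. Member counts on that scale describe shares within snRNA, and the shares of all tested transcripts called are not a like background for them.

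In T cell, 19 of the 27 members were higher and 1 was lower, against 19.6% and 60.6% of all transcripts tested and 50.5% and 16.5% of the 109. Their median log2 fold change was 1.24, against -1.30 over all tested and 0.63 over the 109. Higher calls were made in U1, U2, U4, U5, U6, U7 and U12, and neither Rnu11 nor Gm25541 was called. Gm24871 (U5) had a log2 fold change of 2.17 (SE 0.40, adjusted p = 0.000179) and Gm22513 (U1) one of 1.75 (SE 0.18, adjusted p = 1.13e-06). On rescaled TPM 13 members were higher and 3 lower, against 15.7% and 67.4% of all tested. Of the 103 transcripts left of the 109 on that scale, 38 were higher and 30 lower. Relative to the summed snRNA level, Gm22513 alone was higher (0.42) and 7 members were lower, against 9.11% and 75.9% of all tested and 11.9% and 49.5% of the 109. The U2 variant Gm22973 was the lower call (-1.06, SE 0.40, adjusted p = 0.0262) and was lower on both other scales, but the call was lost without T cell 1 (-1.02, adjusted p = 0.0810) or T cell 2 (-0.92, adjusted p = 0.102).

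In HSPC, 22 of the 27 members were lower and none higher, against 69.7% and 3% of all transcripts tested and 78.9% and 1.83% of the 109, with a median log2 fold change of -1.42 against -1.27 over all tested and -1.63 over the 109. A lower TPM in HSPC was thus shared with most transcripts. Without ribosomal RNA and the miRNA trio 9 members were higher and 5 lower, close to the background of 32.4% and 21.7% of all tested. Of the 103 left of the 109 on that scale, 26 were higher and 21 lower. Relative to summed snRNA 11 were higher and 4 lower, against 28.5% and 25.8% of all tested and 28.4% and 16.5% of the 109. The U6 RNAs Gm22618 (-3.32, SE 0.54, adjusted p = 8.54e-05) and Rnu6 (-2.50, SE 0.23, adjusted p = 4.88e-07) and the U4 RNAs Gm24407 (-2.76, SE 0.20, adjusted p = 7.35e-08) and Gm24265 (-2.44, SE 0.15, adjusted p = 5.21e-08) were lower on all 3 scales. Rnu7 and Rnu12 were lower in TPM (-0.68 and -0.74) but higher relative to summed snRNA (1.14 and 1.08), and the TPM call of Rnu12 was lost without HSPC 1 (-0.59, adjusted p = 0.0953) or HSPC 3 (-0.70, adjusted p = 0.0611). Without B cell 1 in the comparison group, 2 members were called higher in HSPC, against 3.78% of all tested.

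In B cell, 10 members were higher and 7 lower, against 13.1% and 47.2% of all transcripts tested and 21.1% and 36.7% of the 109, with a median log2 fold change of 0.06 against -0.66 over all tested and -0.21 over the 109. On rescaled TPM the counts were again 10 and 7, against 14.6% and 40.6% of all tested. Of the 103 left of the 109 on that scale, 22 were higher and 37 lower. Relative to summed snRNA 7 were higher and 13 lower, against 8.72% and 59.7% of all tested. Of the 109, 14 were higher and 58 lower. Rnu7 fell furthest, by 2.58 on the log2 scale (SE 0.21, adjusted p = 1.70e-07), and by 3.03 relative to summed snRNA. All 7 lower calls held on the 3 scales; besides Rnu7 they were Gm24871 of U5 (-1.46, SE 0.40, adjusted p = 0.00556) and the U2 variants Gm25360 (-1.86, SE 0.38, adjusted p = 0.000726), Gm22973, Gm24497, Gm25939 and Gm26316. Without B cell 2 or B cell 3 the calls of Gm24871 (adjusted p = 0.0545 and 0.0634), Gm22973 (0.0713 and 0.0929) and Gm24497 (0.0584 and 0.0630) were lost, and that of Gm26316 was lost without B cell 2 (0.101). With single libraries left out, Gm24871 ranged from -2.29 to -0.98, Gm22973 from -2.13 to -0.92, Gm24497 from -1.99 to -0.99 and Gm26316 from -1.54 to -0.61. Gm25360 (-2.58 to -1.40) and Gm25939 (-1.77 to -0.85) also moved but kept the call, and Rnu7 ranged from -2.64 to -2.49. Without B cell 1 the lower calls numbered 12, without B cell 2 they numbered 3 and without B cell 3 they numbered 4, against 48.1%, 41.8% and 40.5% of all tested. Gm22618 and Gm22363 were higher (2.52, SE 0.54, adjusted p = 0.00106, and 2.39, SE 0.61, adjusted p = 0.00378) and kept the call with any single library left out, but the size moved, from 3.70 and 3.73 without B cell 1 to 1.89 and 1.61 without B cell 3. B cell 1 itself was within the range of the other cell types. Rnu1a1, Gm22513, Gm24265, Gm24407 and Gm23143 were also higher on all 3 scales.

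In NK, 9 members were higher and none lower, against 13% and 25.3% of all transcripts tested and 45% and 2.75% of the 109, with a median log2 fold change of 0.54 against -0.24 over all tested and 0.64 over the 109. On rescaled TPM 7 were higher and 1 lower, against 10.8% and 28.4% of all tested. Of the 103 left of the 109 on that scale, 39 were higher and 7 lower. Relative to summed snRNA 3 were higher and 2 lower, against 7.07% and 47.7% of all tested. Of the 109, 19 were higher and 15 lower. Gm24871 (1.52, SE 0.40, adjusted p = 0.00751), Rnu7 (1.45, SE 0.21, adjusted p = 0.000101) and Rnu5g (0.93, SE 0.19, adjusted p = 0.00143) were higher on all 3 scales. Without B cell 1 in the comparison group, 15 members were called higher, against 15.5% of all tested and 56.9% of the 109, and without NK 1 Gm24871 was no longer called (1.34, adjusted p = 0.0552).

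In Monocyte, 6 members were higher and 10 lower, against 79.5% and 7.46% of all transcripts tested and 49.5% and 18.3% of the 109, with a median log2 fold change of -0.27 against 3.28 over all tested and 0.69 over the 109. The 23 members above 50 TPM in Monocyte alone are not among the 27. The balance of calls turned with the scale. On rescaled TPM 1 member was higher and 19 lower, against 71.1% and 14.3% of all tested. Of the 103 left of the 109 on that scale, 27 were higher and 46 lower. Relative to summed snRNA 11 members were higher and 5 lower, against 84.2% and 4.94% of all tested. Of the 109, 75 were higher and 9 lower. Gm25541, the U6atac RNA, was the only member higher on all 3 scales (2.24, SE 0.33, adjusted p = 1.77e-05). Rnu12 (-1.68, SE 0.25, adjusted p = 1.66e-05), Gm25412 (-1.56, SE 0.27, adjusted p = 6.85e-05), Gm22513 (-1.35, SE 0.18, adjusted p = 7.26e-06), Rnu1a1 (-1.13, SE 0.18, adjusted p = 3.07e-05) and Rnu5g (-0.86, SE 0.19, adjusted p = 0.000579) were lower on all 3. The higher calls of the U2 variants Gm26316 (1.09, SE 0.33, adjusted p = 0.00651) and Gm25360 (0.89) were lost when ribosomal RNA and the miRNA trio were left out of the total, and that of Gm25360 also without any of 7 single libraries, with an adjusted p of up to 0.142 (without Monocyte 2). Without Monocyte 3, 3 members were called higher, against 79% of all tested.

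**Figure D4:**
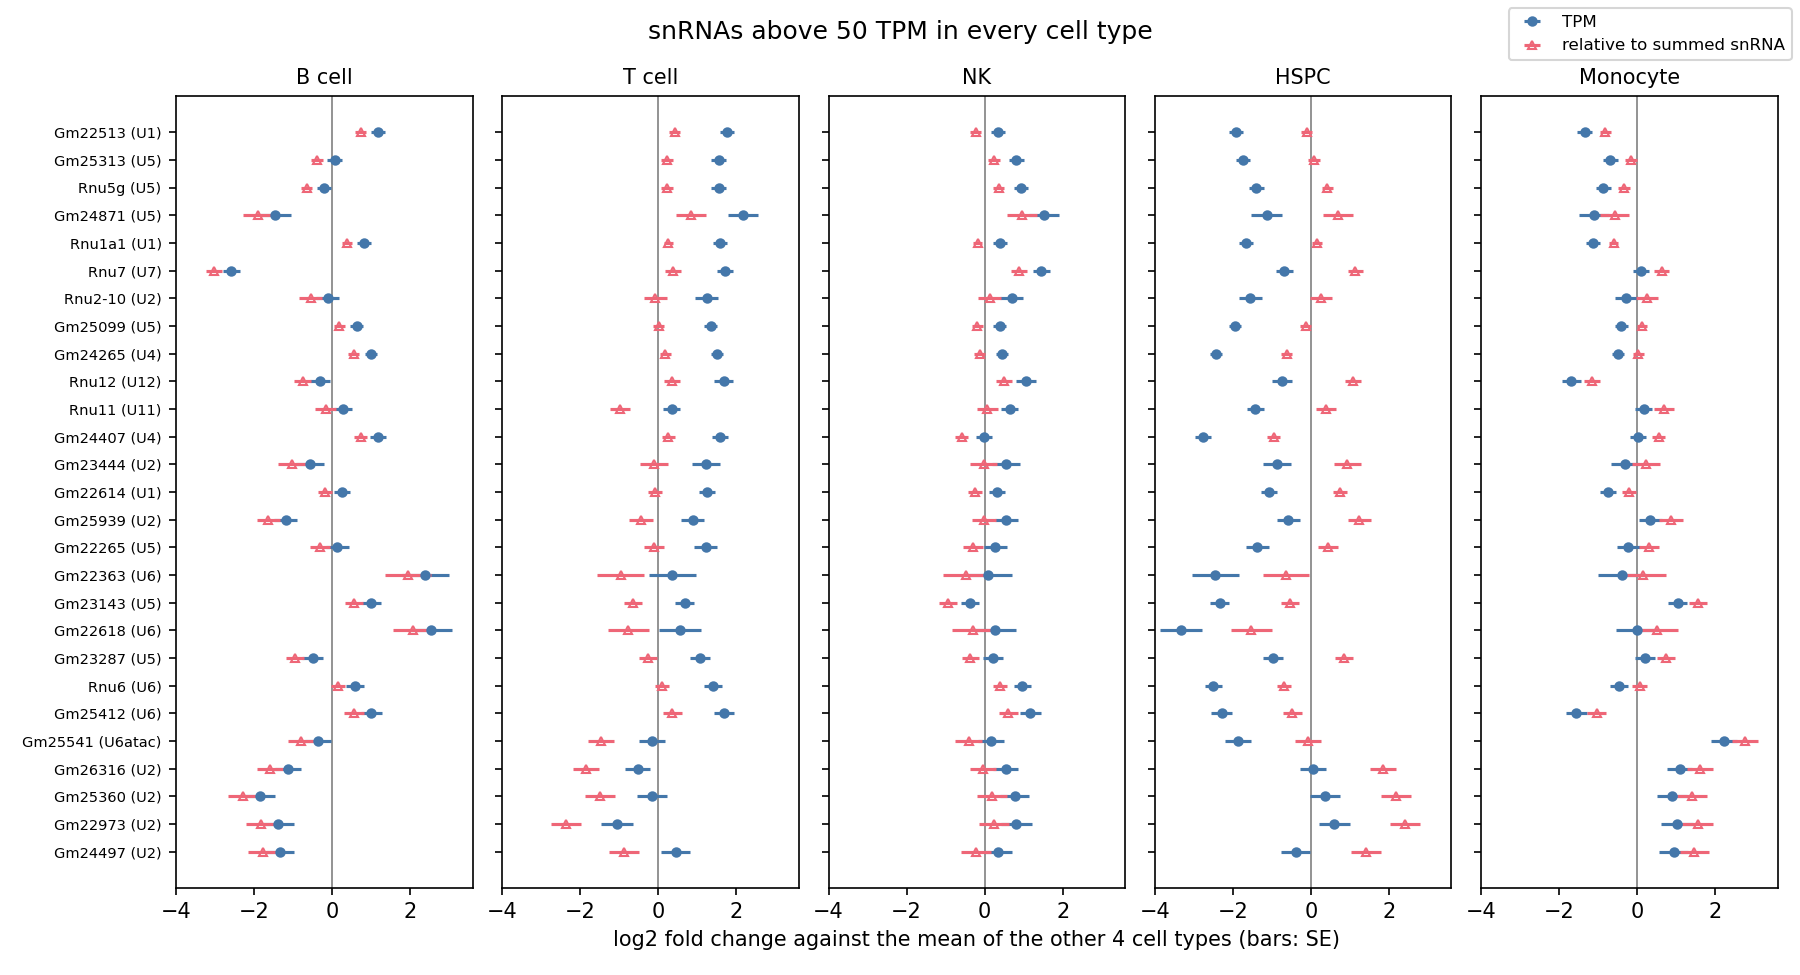
Log2 fold change (x axis) of the members above 50 TPM in every cell type, in 1 panel per cell type, each set against the average of the remaining 4; points give TPM and TPM relative to summed snRNA, and bars 1 SE. Rnu7 lies at -2.58 in B cell on the TPM scale, and in HSPC the 22 members called lower in TPM become 4, with 11 called higher, relative to summed snRNA, where 25.8% and 28.5% of all transcripts tested were called lower and higher.

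The mRNAs of snRNP proteins and of the factors that make and assemble snRNAs were looked for at the surface as well. All 98 genes of the 10 lists were listed, and 1 of them, Snrpb, which encodes the Sm protein B, had a transcript above 50 TPM, against 2.98% of all listed genes. The summed level of the Sm core list averaged 217 TPM in Monocyte and 13.8 to 29.7 TPM in the other cell types, and the other 9 lists were highest in Monocyte too, where 79.5% of all transcripts tested were called higher. These levels stood beside U1 sums of 7629 to 61277 TPM.

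In PBMC total RNA, the snRNAs were measured per gene as RSEM estimates of read counts (expected counts), with totals of 4.69e+06 to 9.06e+06 per library. The ct, WT and Y groups were compared over 11635 genes by edgeR's quasi-likelihood test, and 157 of the 1383 snRNA genes passed the filter on low counts. The snRNAs made up 5.04% to 7.57% of counts. U1 took 57.1% to 67.9% of snRNA counts, U2 25.0% to 35.5%, U5 2.44% to 3.38%, U4 2.13% to 3.26%, U6 0.857% to 1.17% and U7 0.0233% to 0.0549%. These are shares of counts without length correction from another protocol, so they stand beside the surface shares and were not compared with them.

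No named Rnu gene was called in any of the 3 comparisons. In counts per 1e+06 (CPM), the ct libraries had 3978, 4182 and 4858 of Rnu1a1, those of WT 5090, 3737 and 5655 and those of Y 5189, 4486 and 5164. For Rnu2-10 the ct libraries had 3235, 3145 and 4169 CPM, those of WT 4153, 3385 and 3831 and those of Y 4484, 4797 and 4827. In both genes ct overlapped WT, and for Rnu2-10 the Y libraries lay above all others without passing the test. Rnu5g was at 365 to 567 CPM in ct, 478 to 558 in WT and 500.0 to 666 in Y, Rnu12 at 406 to 567, 448 to 636 and 553 to 637, Rnu11 at 117 to 181, 149 to 153 and 155 to 204, and Rnu7 at 12.3 to 30.0, 15.1 to 30.4 and 21.4 to 34.3. All of these ranges overlapped between ct and Y. Rnu1b6 was at 0.119 CPM in ct 3 and between 21.5 and 33.3 CPM in the other libraries, and Rnu1b2 at 113 to 167, 101 to 144 and 74.3 to 155 CPM in ct, WT and Y. Rnu1b1, at 11.2 to 14.7 CPM in ct, 16.7 to 41.6 in WT and 20.7 to 74.3 in Y, came closest to the threshold, with a log2 fold change of 1.66 in Y against ct (SE 0.39, adjusted p = 0.0658, edgeR). Of the 5 most abundant Gm genes, Gm22068, Gm26444, Gm22634, Gm23804 and Gm25679, all of U1, none was called, and several had the same CPM as another copy in most libraries.

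WT against ct had 10 snRNA genes higher and none lower, against 0.765% and 1.6% of all genes tested, and the median log2 fold change was 0.34 over the snRNA genes and 0.00 over all genes. Gm24305, a U1 copy, reached 3747, 3032 and 3840 CPM in the WT libraries, against 1836, 1725 and 2240 CPM in ct and 2470, 2075 and 2519 CPM in Y. The WT libraries lay above all others, with a log2 fold change of 0.87 (SE 0.14, adjusted p = 0.00171, edgeR). Without WT 1 the count of higher calls was 20, against 1.06% of all genes tested, and without ct 2 or WT 2 it was 6, against 0.464% and 0.477%. Y against ct had 2 snRNA genes higher and none lower, against 0.266% and 0.438% of all genes tested, namely Gm25890 of U1 (1.78, SE 0.37, adjusted p = 0.0334) and Gm23092 of U6 (1.16, SE 0.22, adjusted p = 0.0175). Without ct 1, ct 2 or Y 2 no snRNA gene was called in that comparison, without Y 1 the count was 1, and without ct 3 it was 10, against 0.966% of all genes tested. Y against WT had 6 lower and none higher, against 0.817% and 0.438% of all genes tested, and Gm24305 was among them (-0.59, SE 0.13, adjusted p = 0.0427). With 1 library left out, the count of lower calls was 15 without WT 1, 3 without WT 2 or Y 1, 2 without WT 3, 1 without Y 2 and 0 without Y 3, where the share of all genes tested ranged from 0.216% (without Y 3) to 0.941% (without WT 1). Each called gene is one of many near-identical copies, between which reads can be shared, so the level of a single copy is uncertain.

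**Figure D5:**
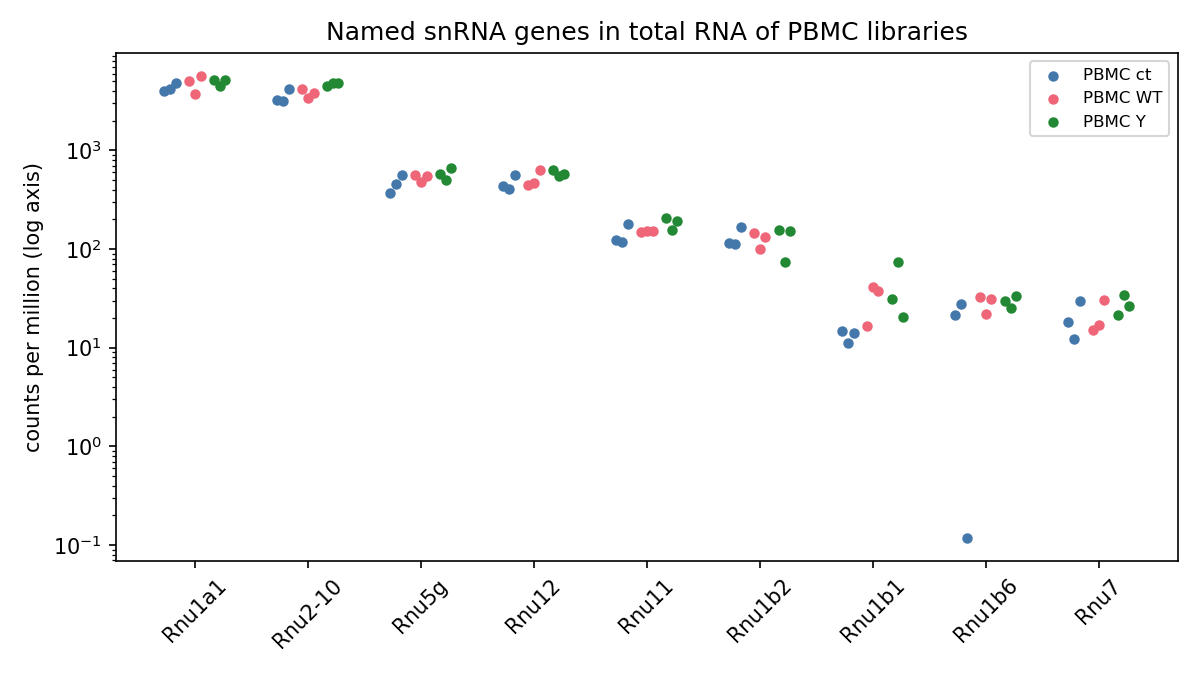
CPM (log y axis) of the 9 tested Rnu genes (x axis) in the 9 PBMC libraries, coloured as ct, WT and Y; each point is 1 library. Rnu1a1 and Rnu2-10 lie between 3145 and 5655 CPM in every library, and Rnu1b6 drops to 0.119 CPM in ct 3.

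Marker levels moved with the PBMC groups. Erythroid markers summed to 6667 to 8104 CPM in ct, 3878 to 5033 in WT and 4882 to 4911 in Y, platelet markers to 461 to 546, 262 to 353 and 377 to 418, and neutrophil markers to 76.8 to 99.3, 62.8 to 81.0 and 215 to 229. Their part in the snRNA differences was not tested. Of the 98 genes for snRNP proteins and snRNA processing, 88 passed the filter and none was called in any of the 3 comparisons by edgeR or by DESeq2. At an unadjusted p below 0.05, edgeR found 7, 3 and 6 of them in WT against ct, Y against ct and Y against WT, and DESeq2 found 2 in each, against 11.8%, 8.61% and 11.8% of all genes tested by edgeR and 5.91%, 3.81% and 5.4% by DESeq2.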

How the data were processed

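Surface libraries were deposited as TPM per transcript, which the authors estimated with Kallisto, so depth is unknown. The submitters' processing notes name cutadapt, STAR, featureCounts, kallisto and mm10, and the annotation release is not given in the sources used here. PBMC libraries were deposited as RSEM expected counts per gene (notes: Trim Galore, STAR, featureCounts, RSEM, hg38 and mm10), which were rounded to whole numbers.

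The members and all gene lists were chosen with earlier results of these data known. Sequences and coordinates came from GENCODE M21, matched by name or transcript ID, and families were set by at least 65% identity to a named snRNA. Identical copies cannot be told apart by reads, and the TPM of near-identical copies depends on how Kallisto divided reads between them. TPM was tested with limma 3.58.1 (mean-variance trend, pseudocount 1, 1 fit over 15 libraries), because the count models used in the study need read counts. PBMC counts were tested with edgeR 4.0.16 (TMM, filterByExpr, 1 fit over 9 libraries), with DESeq2 1.42.0 as an alternative, in R 4.3.3. Adjusted p-values are Benjamini-Hochberg, over all features tested. Both scripts were tested on simulated data.

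Named were every Rnu gene, the 10 Gm members with the highest mean TPM, the 2 largest and 2 smallest called fold changes per comparison, the snRNAs at the threshold and, in PBMC, the 5 Gm snRNA genes with the highest mean CPM. Gm22129, Gm25245, Gm22623, Gm24182, Gm22969, Gm24305, Gm23092 and Gm25890, and further Gm variants given with values, were chosen after their values were seen. Alternatives were another pseudocount, no filter, rescaled TPM, TPM relative to summed snRNA, no Monocyte libraries, a replicate block, each library left out and, chosen after seeing the data, a block for T cell and NK only. Same-numbered T cell and NK libraries deviated together from their group means (r = 0.554, 0.272 and 0.534), a pairing seen in the data and not stated in the labels. Replicates within a group were not duplicates. RefSeq promoter sequences were not used. Some sequences are not reported here.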

Additional observations from a re-analysis of the deposited data

How the results depend on the processing

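Of 38 named and called surface fold changes, all 38 kept direction and call with a pseudocount of 10, with a replicate block and with a block for T cell and NK only, 29 without a filter, 27 on rescaled TPM and 19 relative to summed snRNA, and 28 of 32 without the Monocyte libraries. Leaving out single libraries ended the call of 7 of the 38 and turned none, and over all 84 calls made for the 27 members it ended 19. Fold changes turned on the snRNA-relative scale for Gm23143 (-0.66) and Rnu2-10 (-0.0864) in T cell and Gm24265 in NK (-0.13), and in HSPC on the rescaled and snRNA-relative scales for Rnu11 (0.30 and 0.39), Rnu12 (0.99 and 1.08), Rnu1a1 (0.0672 and 0.16), Rnu2-10 (0.17 and 0.26), Rnu5g (0.33 and 0.42) and Rnu7 (1.05 and 1.14), since the scale changes the total. Relative to summed snRNA, lower calls numbered 13 in B cell, 7 in T cell, 2 in NK, 4 in HSPC and 5 in Monocyte, and higher calls 1 in T cell, 3 in NK, 11 in HSPC and 11 in Monocyte; of all transcripts tested, 59.7%, 75.9%, 47.7%, 25.8% and 4.94% were lower in that order, and 9.11%, 7.07%, 28.5% and 84.2% higher. On rescaled TPM, lower calls numbered 3 in T cell, 1 in NK, 5 in HSPC and 19 in Monocyte, and higher calls 9 in HSPC and 1 in Monocyte, against 67.4%, 28.4%, 21.7% and 14.3% lower and 32.4% and 71.1% higher of all tested. Of the 103 left on that scale of the 109 transcripts above 50 TPM in every cell type, 30, 7, 21 and 46 were lower in that order. In HSPC and Monocyte 26 and 27 were higher. Relative to summed snRNA, 58, 54, 15, 18 and 9 of the 109 were lower in B cell, T cell, NK, HSPC and Monocyte. In the same order without B cell, 13, 19, 31 and 75 were higher. Without a filter on low values, higher calls numbered 4 in NK and 3 in Monocyte and lower calls 0 in T cell and 6 in Monocyte, with more transcripts tested, of which 2.19% and 36.8% were higher and 14.7% and 2.05% lower. Without the Monocyte libraries, T cell had 0 lower calls, against 36.7% of all tested. With single libraries left out, B cell lower calls ranged from 3 to 12, T cell lower calls from 0 to 2, NK higher calls from 7 to 15, HSPC higher calls from 0 to 2 and Monocyte higher calls from 3 to 7, where 40.5% to 50.2%, 54.8% to 61.8%, 9.88% to 15.5%, 1.84% to 3.78% and 78.8% to 79.8% of all tested were called. With same-valued sets counted once, median family shares of snRNA TPM were 20.7% for U1, 12.4% for U2, 6.82% for U4, 40.3% for U5, 6.17% for U6, 7.39% for U7, 3.52% for U11, 3.47% for U12, 0.387% for U4atac and 0.376% for U6atac.

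In PBMC without a filter on low counts, snRNA calls higher and lower were 34 and 3 in WT against ct, 17 and 3 in Y against ct and 8 and 29 in Y against WT, of 588 snRNA genes tested and against 0.805% and 0.832%, 0.446% and 0.419%, and 0.446% and 0.791% of all 29571 genes, and 1 listed protein gene was higher in each of Y against ct and Y against WT, the latter also with only the 6 libraries of both groups. With single libraries left out, higher snRNA calls ranged from 6 to 20 in WT against ct, 0 to 10 in Y against ct and 0 to 1 in Y against WT, lower calls in Y against WT from 0 to 15 (0.464% to 1.06%, 0.141% to 0.966%, 0.216% to 0.546% and 0.216% to 0.941% of all genes), and listed genes called higher from 0 to 1 in Y against ct and Y against WT. The replicate block gave 5 higher snRNA calls in Y against ct and 2 in Y against WT, against 0.284% and 0.395% of all genes. Of the same-numbered pairs outside T cell and NK, 1 of 27 surface pairs and 0 of 9 PBMC pairs correlated above 0.1, and over all libraries 7 of 15 and 2 of 9 correlated best with their own number. The block for T cell and NK, chosen after seeing the data, changed 3 member counts, to 21 lower in HSPC and to 5 higher and 11 lower in Monocyte, against 74.6%, 79.8% and 7.66% of all tested. Except where the setting names it, the cause was not tested.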
